A study of Mus musculus with 6 samples.

Results

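The genes described here are the SNAREs, Rab GTPases, synaptotagmins and Vps genes that carry membrane vesicles between the compartments of a cell. They were taken by symbol: every gene whose single symbol begins with Stx, Vamp, Snap, Rab, Syt or Vps followed by a digit, without Stx11. This gave 148 of the 18193 genes measured. A gene was read from 1 probe set, the one with the highest mean over the 6 arrays. The tissue was whole lens from Balb/c mice at 2 days of age. Lenses of transgenic animals were hybridised to 3 Affymetrix arrays (replicates T1 to T3), and lenses of wild-type animals to 3 more (W1 to W3). The labels name neither the transgene nor its promoter. Per the submitters, 12 lenses of each genotype went into the RNA. Nothing says how they were pooled or how many animals gave them, so a p-value here reflects array-to-array spread that could be wholly or partly technical.

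A vesicle is directed to its target by a Rab GTPase, held there by a tethering complex and fused by SNARE proteins. A VAMP on the vesicle zips together with a syntaxin and a SNAP-25 family protein on the target, and synaptotagmins make some of these fusions respond to calcium. Vps proteins, first found through yeast mutants that missort vacuolar proteins, build the ESCRT, HOPS, CORVET, retromer and GARP complexes of the endosome and lysosome route. The lens fiber cell builds a large plasma membrane as it elongates and later clears its organelles, and human mutations in RAB18, RAB3GAP1, RAB3GAP2 and TBC1D20 cause Warburg Micro syndrome, in which cataract is present at birth.

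Most of these 148 genes differed little between the genotypes. In transgenic lenses 3 passed the test as higher, the synaptotagmin gene Syt12, the Golgi Rab gene Rab43 and the ESCRT gene Vps37a, and 1 passed as lower, the Rab gene Rab20 (limma, adjusted p under 0.05 over all genes). That is 2.7% of the members, against 4.55% of all genes. By direction, 1.93% of all genes were higher and 2.61% lower. No member differed by 1 log2 unit or more. The differences ran from -0.68 (Rab3c) to 0.59 (Syt12), and 142 members (95.9%) lay within 0.5 of 0, as did 94.2% of all genes. For 101 members (68.2%) the whole 95% interval of the difference lay within 0.5 of 0, against 69.1% of all genes. Stx11, which the rule leaves out, fell by 3.00 in the same fit.

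The sign of the differences leaned upward. Of the 148 members, 96 (64.9%) were above 0, against 52.3% of all genes, and the median difference was 0.080 against 0.011. With the arrays shifted to a common median in place of quantile normalization, 75 members were above 0. The medians there were 0.002 for members and -0.035 for all genes, and on the values as deposited they were 0.039 and 0.001. With a gene's probe sets averaged, 83 members were above 0 and the medians were 0.036 and 0.002. All 3 transgenic arrays lay above all 3 wild-type arrays for 38 members (25.7%), where 15.3% of all genes did so, and below them for 14 members (9.46%), where 13.5% of all genes did. In either direction that is 35.1% of members and 28.8% of all genes. An unadjusted p under 0.05 was found for 31 members (20.9%) and for 22.4% of all genes. In at least one genotype 127 members reached 5.34, the median log2 value over all probe sets, and 21 did not. Background may limit what those 21 can show. Among genes that reached 5.34 in at least one genotype, 2.36% of members and 6.01% of all genes passed. The groups did not overlap for 34.6% of these members and 31.8% of these genes.

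**Figure D1:**
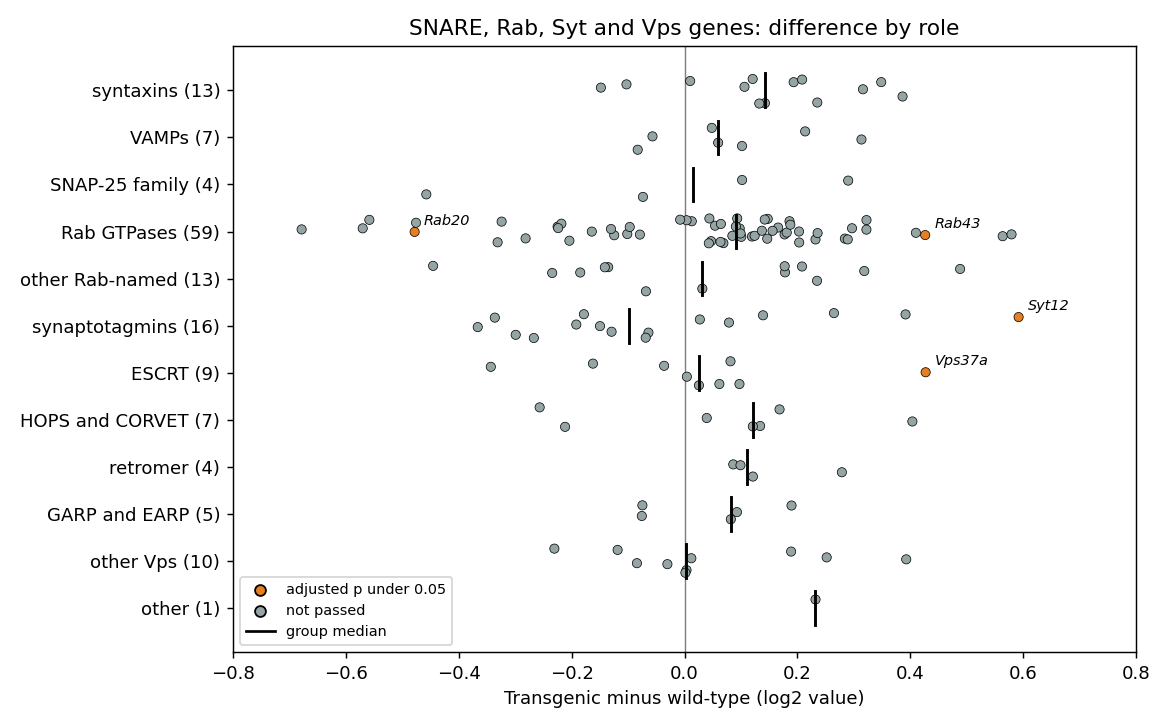
Transgenic minus wild-type difference (log2 value, horizontal axis) of the 148 genes, 1 point a gene, in rows by role with the number of genes in brackets and the median as a bar. The 4 genes past the threshold are named, and all points lie between -0.68 and 0.59.

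Syt12 encodes a synaptotagmin of secretory vesicles. Its log2 values were 6.51, 6.65 and 6.51 in transgenic lenses (T1 to T3), against 6.06, 5.86 and 5.97 in wild-type lenses (W1 to W3). The groups did not overlap. The rise was 0.59 ± 0.09 (SE, n = 3 each), 1.51-fold, with a limma adjusted p = 0.0149. A single probe set reads Syt12. The call was lost without T2 (adjusted p = 0.0696), W2 (0.0696) or W3 (0.0638).

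Rab43, a Rab GTPase of the Golgi, stood at 7.74, 7.79 and 7.71 in transgenic lenses and at 7.36, 7.24 and 7.37 in wild-type lenses. Each transgenic array was above each wild-type array, a rise of 0.43 ± 0.08 (SE; limma adjusted p = 0.0313). Of its other probe sets, the brighter differed by 0.06 and the dimmer by 0.18. Vps37a encodes a subunit of ESCRT-I, which sorts ubiquitin-tagged membrane proteins into multivesicular bodies. It stood at 7.85, 7.66 and 7.70 in transgenic lenses and at 7.19, 7.33 and 7.39 in wild-type lenses. There was no overlap between genotypes, and the rise was 0.43 ± 0.09 (SE; limma adjusted p = 0.0483). Its other probe sets differed by 0.26 and -0.19, so the probe sets of this gene do not share a direction. In the test among all probe sets, the one used missed the threshold (limma adjusted p = 0.0504).

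Rab20, a Rab GTPase of endosomes and phagosomes, stood at 4.75, 4.46 and 4.57 in transgenic lenses and at 5.16, 4.96 and 5.10 in wild-type lenses. It fell by 0.48 on the log2 scale (SE 0.10; limma adjusted p = 0.0449), and none of its 6 values reached 5.34. Rab43, Vps37a and Rab20 each lost their call with any 1 array left out (adjusted p from 0.0540 to 0.118 for Rab43, 0.0781 to 0.135 for Vps37a and 0.0562 to 0.144 for Rab20). When a gene's probe sets were averaged, Rab43 (0.164) and Vps37a (0.239) were lost and Syt12 and Rab20, which have 1 probe set each, were kept. Rab43 and Vps37a also missed the threshold on the values as deposited (0.0560 and 0.0507) and after shifting to a common median (0.0841 and 0.0707). Whether a fall comes from fewer cells of a type or from less RNA per cell cannot be told apart in whole lenses.

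**Figure D2:**
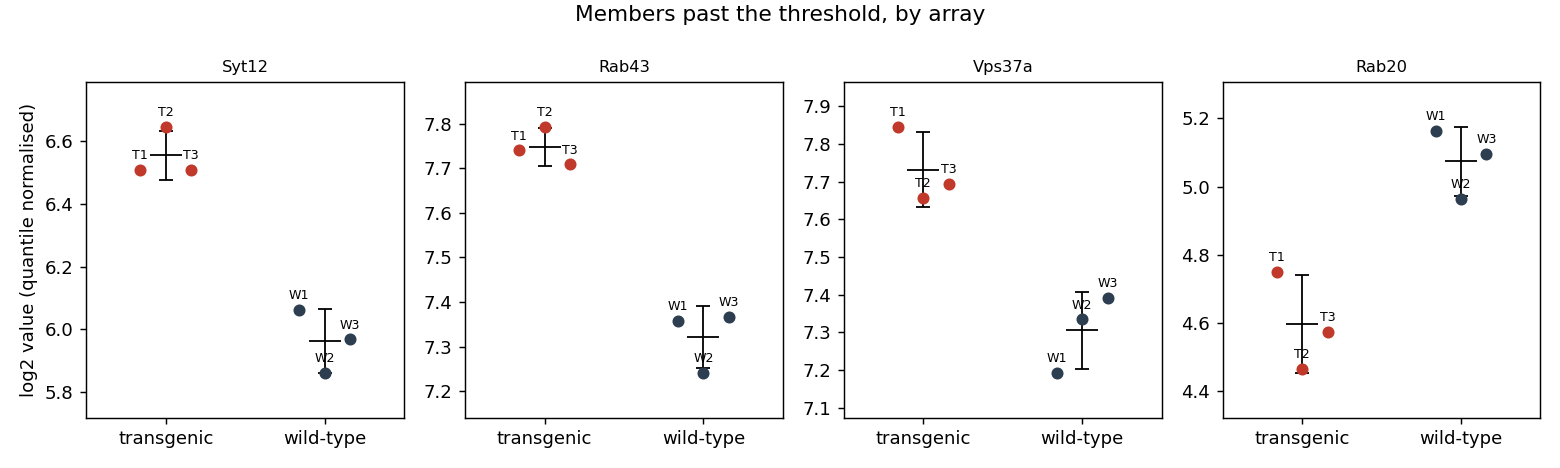
Log2 values (vertical axes, each with its own range) of Syt12, Rab43, Vps37a and Rab20 on each array, with transgenic arrays T1 to T3 on the left and wild-type arrays W1 to W3 on the right of each panel. Bars give the mean and SD of 3 arrays, and the groups do not overlap in any of the 4 panels.

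**Figure D3:**
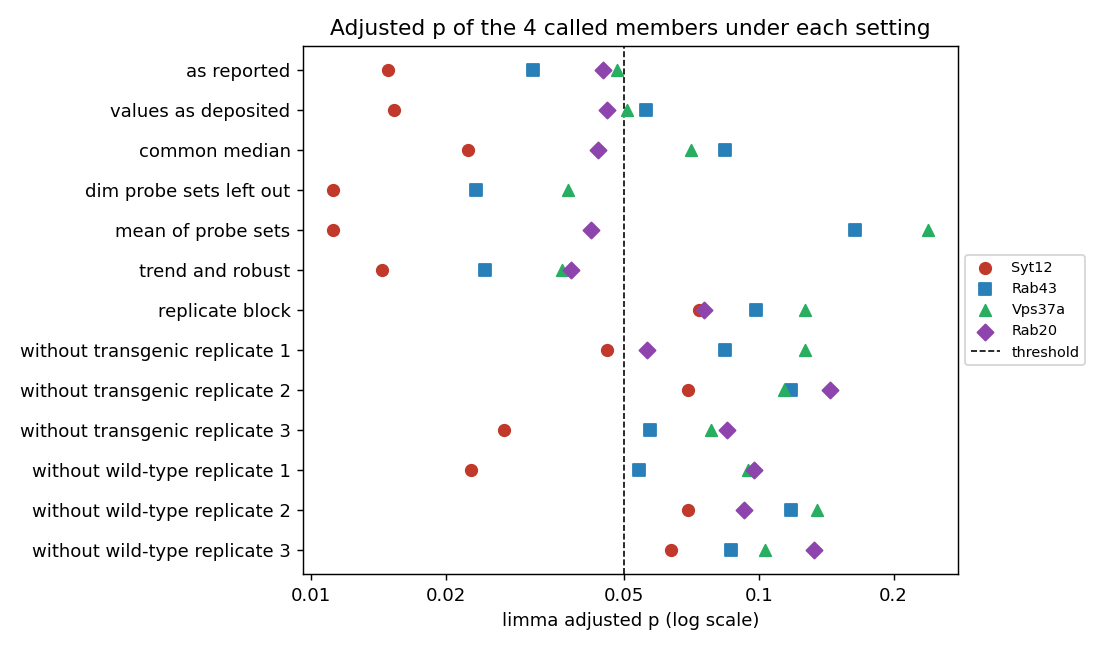
Limma adjusted p (log axis) of the 4 genes as reported and under each alternative, with the threshold of 0.05 dashed. With single arrays left out, Syt12 is the only one of the 4 with any adjusted p under the threshold.

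The upstream sequence of Rab43 and Rab20 is shown because these are called members with a RefSeq promoter window here (GRCm38.p6). Each line gives the 100 bases before the annotated start, 5′ to 3′ on the gene's strand. Capitals mark CACGTG, the palindromic E-box read by basic helix-loop-helix factors.
Rab43 (chr6:87812165-87812264, minus strand): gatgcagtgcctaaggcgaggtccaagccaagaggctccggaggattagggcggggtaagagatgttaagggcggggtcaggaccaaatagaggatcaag
Rab20 (chr8:11478641-11478740, minus strand): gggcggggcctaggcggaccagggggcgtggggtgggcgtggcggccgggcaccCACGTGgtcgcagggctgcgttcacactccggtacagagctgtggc

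A longer palindrome, TCACGTGA, is the core of the CLEAR element, through which the factor TFEB is known to act on lysosomal genes. Over the 250 bases upstream of the first listed start, it was found in 6 of the 111 members with a window (5.41%). Of all 27025 windows 217 held it (0.803%). The windows outnumber the 18193 genes measured, so they take in genes not measured here and are not a matched background. TCACGTGA contains CACGTG, which was found in 14 of the 111 members (12.6%) and in 6.05% of all windows. The forkhead letters TGTTTAC, searched on both strands, were in 5 members (4.50%) and 3.09% of all windows, and the AP-1 letters TGACTCA in 2 members (1.80%) and 4.43%. The motifs were chosen after the values were seen, and a match is a description of the letters only. The 6 stretches below carry TCACGTGA, in capitals, and are shown because they belong to members of the endosome and lysosome route.
Stx6 (chr1:155158601-155158640, plus strand): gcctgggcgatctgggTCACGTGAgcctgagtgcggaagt
Rab5a (chr17:53479122-53479161, plus strand): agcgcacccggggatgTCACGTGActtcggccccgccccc
Rab21 (chr10:115315599-115315638, minus strand): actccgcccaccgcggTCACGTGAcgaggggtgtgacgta
Vps16 (chr2:130424285-130424319, plus strand): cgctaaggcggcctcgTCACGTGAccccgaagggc
Vps26a (chr10:62486965-62487004, minus strand): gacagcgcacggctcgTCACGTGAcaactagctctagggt
Vps33a (chr5:123573016-123573060, minus strand): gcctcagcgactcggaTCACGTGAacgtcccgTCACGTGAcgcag

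None of these 6 genes passed the test, and they did not share a direction. The transgenic minus wild-type differences were 0.35 for Stx6, 0.24 for Rab5a, 0.13 for Vps33a, 0.12 for Vps26a, 0.01 for Rab21 and -0.26 for Vps16 (limma adjusted p from 0.0997 to 0.965). Vps33a holds the palindrome at 2 places.

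Of the 24 SNAREs among the members, none passed: 13 syntaxins, 7 VAMPs and 4 SNAP-25 family genes. Stx11, the syntaxin that the rule leaves out, fell by 3.00 and is not counted here. The median difference of the 24 was 0.113, against 0.011 for all genes. An unadjusted limma p under 0.05 was found for 4 of them (16.7%) and for 22.4% of all genes. Among the syntaxins, which sit on target membranes, 11 of 13 (84.6%) were above 0, against 52.3% of all genes. Their median was 0.142. Stx16, a syntaxin of the trans-Golgi network, had the smallest p. It stood at 8.96, 8.80 and 8.74 in transgenic lenses and at 8.36, 8.53 and 8.46 in wild-type lenses. These groups did not overlap, but the difference of 0.39 ± 0.09 (SE) missed the threshold (limma adjusted p = 0.0649).

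Stx6, its partner in Golgi and endosome fusion, differed by 0.35 (95% interval 0.11 to 0.59), with groups that did not overlap and an adjusted p = 0.0997. Stx4a, the plasma membrane syntaxin, differed by 0.32 (0.09 to 0.55). Stx17 takes part in the fusion of autophagosomes with lysosomes. Its brightest probe set over the 6 arrays differed by 0.24 (-0.03 to 0.50), and a second probe set of nearly the same brightness differed by 0.48 and passed when every probe set was tested on its own (limma adjusted p = 0.0219). Further Stx17 probe sets differed by -0.16 and -0.10. Stx3, a syntaxin of apical and ribbon synapse membranes, differed by -0.10 (-0.28 to 0.08).

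The VAMPs, which sit on vesicles, ran from -0.08 to 0.31 with a median of 0.060. Vamp8, used in late endosome and autophagosome fusion, stood at 7.61, 7.73 and 8.03 in transgenic lenses and at 7.67, 7.26 and 7.49 in wild-type lenses. T1 lay below W1, and the difference of 0.31 (95% interval -0.02 to 0.65) did not pass. Vamp3, of recycling endosomes, differed by 0.10 (-0.10 to 0.30). Vamp2, the VAMP of synaptic vesicles, gave opposite signs by probe set. The probe set used differed by 0.21 (-0.07 to 0.50), and the dimmer one by -0.53, which passed among all probe sets (limma adjusted p = 0.0325). Vamp1 showed a like split in size, with -0.08 for the probe set used and -0.54 for the dimmer one (limma adjusted p = 0.0310).

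In the SNAP-25 family, Snap47 stood at 11.32, 11.37 and 11.41 in transgenic lenses and at 11.00, 11.11 and 11.12 in wild-type lenses. The groups did not overlap, and the difference of 0.29 ± 0.08 (SE) did not pass (limma adjusted p = 0.0899). A second probe set of Snap47 differed by 0.18. Snap29, which pairs with Stx17 and Vamp8, differed by 0.10 (95% interval -0.17 to 0.37), and Snap23, the family's form outside neurons, by -0.07 (-0.27 to 0.12).

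Of the 59 Rab GTPases 2 passed, Rab43 and Rab20 (3.39%, against 4.55% of all genes), and 57 did not. Of the 59, 40 (67.8%) were above 0, against 52.3% of all genes, and their median was 0.091. By the compartment each is known for, the medians were 0.099 for 13 Rabs of the endoplasmic reticulum and Golgi, 0.103 for 10 of early endosomes, 0.096 for 10 of recycling and polarised delivery, 0.137 for 9 of late endosomes and lysosome-related organelles, and -0.015 for 8 of regulated secretion. The other 9 Rabs were placed in no compartment.

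Several Rabs lay just short of the threshold. Rab42, a little-studied Rab, stood at 4.32, 4.23 and 4.55 in transgenic lenses and at 4.72, 4.97 and 5.08 in wild-type lenses. There was no overlap between genotypes, and the difference of -0.56 had a limma adjusted p = 0.0503. It was under the threshold without T3 (0.0364) or W1 (0.0430) and when every probe set was tested on its own (0.0491), and none of its values reached 5.34. Rab36, of the Golgi, stood at 6.90, 7.12 and 6.85 in transgenic lenses and at 6.48, 6.55 and 6.61 in wild-type lenses, a difference of 0.41 (adjusted p = 0.0611). Its other probe sets differed by 0.26 and -0.07.

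Rab18, of lipid droplets and the endoplasmic reticulum, stood at 9.93, 10.05 and 10.02 in transgenic lenses and at 10.00, 9.97 and 9.88 in wild-type lenses. The groups overlapped, and the difference of 0.05 (95% interval -0.15 to 0.24) did not pass. The difference was -0.01 on the values as deposited and -0.05 after shifting to a common median. Rab7, of late endosomes, differed by 0.04 (-0.15 to 0.24), and by -0.04 after shifting to a common median. Rab11a, of recycling endosomes, differed by -0.08 (-0.28 to 0.12), and its second probe set by 0.26. Rab2a, between the endoplasmic reticulum and Golgi, differed by 0.30 (0.06 to 0.53) with groups that did not overlap (limma adjusted p = 0.142). The next brightest probe set of Rab2a differed by -0.02, and its other probe sets ran from -0.10 to 0.31.

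The Rabs of regulated secretion went both ways. Rab27b, which docks secretory granules, stood at 5.15, 5.30 and 5.42 in transgenic lenses and at 4.63, 4.44 and 5.06 in wild-type lenses. The groups did not overlap and the difference was 0.58 ± 0.16 (SE; limma adjusted p = 0.0871, or 0.0449 without W3). The other 3 probe sets of Rab27b, all dimmer, differed by -0.00, -0.12 and -0.08. Rab27a, of melanosomes and lytic granules, differed by 0.12 (95% interval -0.25 to 0.49). The mean of Rab27b was under 5.34 in both genotypes.

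Rab3c, a Rab of synaptic vesicles, had the lowest difference of all members. It stood at 4.86, 5.37 and 4.89 in transgenic lenses and at 6.09, 5.58 and 5.48 in wild-type lenses. There was no overlap between genotypes, but the spread within them was wide and the difference of -0.68 (95% interval -1.13 to -0.23) did not pass (limma adjusted p = 0.0948). A dimmer probe set of Rab3c differed by -0.75 and passed among all probe sets (0.0158). The remaining 3, all dim, differed by 0.06, -0.39 and 0.00 and did not pass. The paralogs differed by 0.23 for Rab3a, -0.33 for Rab3b and 0.10 for Rab3d, and none of them passed.

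Rab6b, the neuronal form of a Golgi Rab, stood at 6.89, 7.35 and 6.90 in transgenic lenses and at 7.82, 7.71 and 7.31 in wild-type lenses. T2 lay above W3, and the difference of -0.57 did not pass (limma adjusted p = 0.105). Of its other probe sets 2 passed among all probe sets as lower, at -0.64 (0.0498) and -0.61 (0.0260), and the remaining one differed by -0.05. With probe sets averaged, Rab6b passed at -0.47 (0.0419). The ubiquitous Rab6a differed by 0.10.

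Snap25, the SNAP-25 family gene of synapses, stood at 7.35, 8.22 and 7.74 in transgenic lenses and at 8.66, 8.30 and 7.73 in wild-type lenses, a difference of -0.46 (95% interval -1.10 to 0.18). Syt1, the calcium sensor of synaptic vesicle fusion, stood at 7.49, 8.24 and 7.89 in transgenic lenses and at 8.46, 8.25 and 7.82 in wild-type lenses, a difference of -0.30 (-0.81 to 0.21). In both genes T1 was lowest and W1 highest, and the groups overlapped. Syt4, a synaptotagmin of neurons, differed by -0.37 (-0.92 to 0.19).

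Other neuronal members lay above 0, at 0.23 for Rab3a, 0.21 for Vamp2, 0.21 for Stx1a and 0.23 for Snap91. None of them passed on the probe set used. Their dimmer probe sets differed by -0.16, -0.53, -0.35 and -0.16 in turn, and that of Vamp2 passed among all probe sets. Markers of neural retina shared the lowest and the highest array with Snap25, Syt1, Rab3c and Rab6b. The mean of 17 measured retina markers was 6.83, 7.33 and 7.02 in transgenic lenses and 7.60, 7.44 and 7.15 in wild-type lenses, again with T1 lowest and W1 highest. The markers' summed level ran from 116.1 to 124.7 in transgenic lenses and from 121.6 to 129.3 in wild-type lenses. Differences were negative for 15 of these 17 genes (median -0.375), and Elavl4, which encodes a neuronal RNA-binding protein, passed as lower. The part of retinal RNA in the values of Snap25, Syt1, Syt4, Rab3c and Rab6b was not tested.

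**Figure D4:**
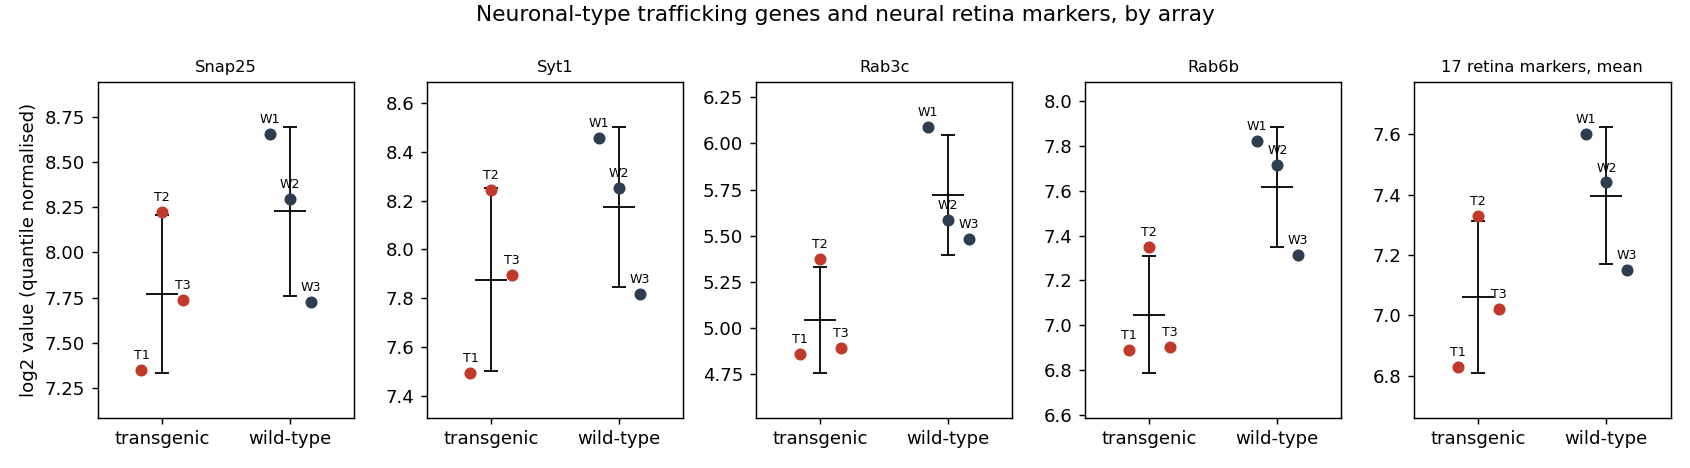
Log2 values (vertical axes, each with its own range) of Snap25, Syt1, Rab3c and Rab6b and the mean of 17 neural retina markers on each array, transgenic on the left and wild-type on the right, with mean and SD of 3 arrays. In every panel T1 is lowest and W1 highest, and the groups overlap in every panel except that of Rab3c.

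Rab25, a Rab of epithelial recycling endosomes, was set apart by 1 array. It stood at 6.92, 6.65 and 8.07 in transgenic lenses and at 6.46, 6.61 and 6.88 in wild-type lenses, so that T3 was the high value. The difference was 0.56 (95% interval -0.21 to 1.33), and 0.14 without T3. The 11 skin epithelium markers averaged 5.85, 5.75 and 9.24 in T1 to T3 and 5.86, 5.84 and 6.37 in W1 to W3. The 11 skeletal muscle markers averaged 5.41, 5.33 and 8.63 in transgenic lenses and 5.61, 5.80 and 5.38 in wild-type lenses. Summed, the skin markers ran from 63.3 to 101.7 in transgenic lenses and from 64.3 to 70.1 in wild-type lenses. The part of skin RNA in Rab25 was not tested.

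Rab38, of melanosomes, stood at 8.64, 8.92 and 8.64 in transgenic lenses and at 9.05, 7.94 and 8.36 in wild-type lenses, and the groups overlapped. The 7 pigment epithelium markers averaged 7.06, 8.37 and 7.68 in transgenic lenses and 7.38, 7.11 and 7.15 in wild-type lenses, with sums of 49.4 to 58.6 and 49.8 to 51.6. Their part in Rab38 was not tested. The 15 lens markers averaged 12.39, 12.30 and 12.26 in transgenic lenses and 12.19, 12.25 and 12.27 in wild-type lenses, and so were high on every array. The averages do not show the single markers, whose differences ran from -1.66 (Bfsp1) to 4.64, with a median of -0.032. Among them Foxe3 passed as higher and Bfsp1 and Prox1 as lower.

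Of the 13 other genes named for Rabs none passed. A pair with related roles went opposite ways. Rab3ip and Rab3il1 encode Rabin8 and a related protein, both exchange factors that activate Rab8. Rab3ip stood at 7.10, 6.88 and 7.15 in transgenic lenses and at 7.55, 7.39 and 7.53 in wild-type lenses, a difference of -0.45 ± 0.10 (SE; limma adjusted p = 0.0537). Rab3il1 stood at 7.77, 7.63 and 7.66 in transgenic lenses and at 6.97, 7.36 and 7.26 in wild-type lenses, a difference of 0.49 ± 0.12 (SE; 0.0580). Neither gene's groups overlapped. Their second probe sets differed by 0.04 for Rab3ip and 0.17 for Rab3il1. Rab8a and Rab8b differed by 0.18 and 0.19.

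Rab3gap1 and Rab3gap2, the subunits of the complex that activates Rab18, differed by 0.18 (95% interval -0.02 to 0.38) and -0.07 (-0.29 to 0.15). Tbc1d20, the further Warburg Micro gene, differed by 0.11 (-0.08 to 0.31). The Rab11 interacting proteins Rab11fip1 to Rab11fip5 ran from -0.23 to 0.23, and a dimmer probe set of Rab11fip5 passed among all probe sets at -0.44 (limma adjusted p = 0.0264). The noncoding transcripts Rab10os, Rab26os and Rab11fip4os1 are members by name alone, and Rab10os differed by 0.32 (0.13 to 0.51).

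Of 16 synaptotagmins, Syt12 rose (6.25% called, against 4.55% of all genes) and 15 did not pass. Their median was -0.099, and 10 of the 16 were below 0. The share above 0 was 37.5%, against 52.3% of all genes. Syt17, a synaptotagmin relative of the Golgi, stood at 5.32, 5.71 and 5.70 in transgenic lenses and at 5.17, 5.22 and 5.16 in wild-type lenses. The groups did not overlap, and the difference of 0.39 had a limma adjusted p = 0.111, or 0.0437 without T1. Syt10 (0.26) and Syt16 (-0.34) stayed far under 5.34 on every array.

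Of 35 Vps genes, Vps37a rose (2.86% called, against 4.55% of all genes) and 34 did not pass. Their median was 0.062 and their range -0.34 to 0.43. In the ESCRT group of 9, the paralogs of Vps37a differed by 0.08 (Vps37b), 0.10 (Vps37c) and -0.16 (Vps37d). Vps25, of ESCRT-II, differed by -0.34 (95% interval -0.66 to -0.03; limma adjusted p = 0.188). Vps4b, the ATPase that takes ESCRT filaments apart, stood at 9.45, 9.26 and 9.49 in transgenic lenses and at 9.53, 9.37 and 9.29 in wild-type lenses, a difference of 0.00 (-0.23 to 0.24). Chmp4b, the ESCRT-III subunit mutated in a dominant human cataract, differed by 0.10 (-0.08 to 0.28).

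The HOPS and CORVET tethers, which dock late and early endosomes, had 7 members and no call. Vps11, a core subunit of both, stood at 7.89, 8.14 and 8.02 in transgenic lenses and at 7.40, 7.68 and 7.76 in wild-type lenses. There was no overlap between genotypes, and the difference of 0.40 ± 0.12 (SE) did not pass (limma adjusted p = 0.0994). Its other probe sets differed by 0.30, 0.29 and 0.04. The core partners Vps16 and Vps18 differed by -0.26 and 0.04, and Vps41 of HOPS by 0.17. Vps8 of CORVET differed by -0.21, with a second probe set at -0.58 that passed among all probe sets (0.0354).

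Retromer returns receptors from endosomes to the Golgi. Its 4 genes were all above 0, at 0.28 for Vps26b, 0.12 for Vps26a, 0.10 for Vps35 and 0.09 for Vps29, and none passed (limma adjusted p from 0.185 to 0.560). Averaging each gene's probe sets turned the sign for Vps29 (-0.04) and Vps35 (-0.07). The 5 GARP and EARP genes, for tethers at the Golgi and recycling endosomes, ran from -0.08 to 0.19. Among the other Vps genes, the lipid transfer protein gene Vps13d stood at 7.91, 8.06 and 7.92 in transgenic lenses and at 7.47, 7.60 and 7.64 in wild-type lenses, a difference of 0.39 (adjusted p = 0.0547). Vps72, a chromatin protein that carries the name only, differed by -0.12.

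The probe sets of a gene did not always move together. The 148 members had 342 probe sets, and 49 members had only 1. Of 72 members whose second probe set reached the median level, 51 had it on the same side of 0 as the probe set used and 21 on the opposite side. The same share over all genes was not computed, so these counts do not set the members apart. Tested on their own, 9 probe sets that were not the ones used passed, 8 as lower and 1, of Stx17, as higher. They belong to 8 genes and are 4.64% of the 194 unused probe sets of the members (4.12% lower and 0.515% higher). Over all genes, 3.9% of the 16752 unused probe sets passed, 2.54% as lower and 1.37% as higher. One of them, a dim probe set of Rab14, differed by -0.69 (limma adjusted p = 0.0108), while the brightest probe set of Rab14 differed by 0.17. Which transcript forms these probe sets read was not tested.

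**Figure D5:**
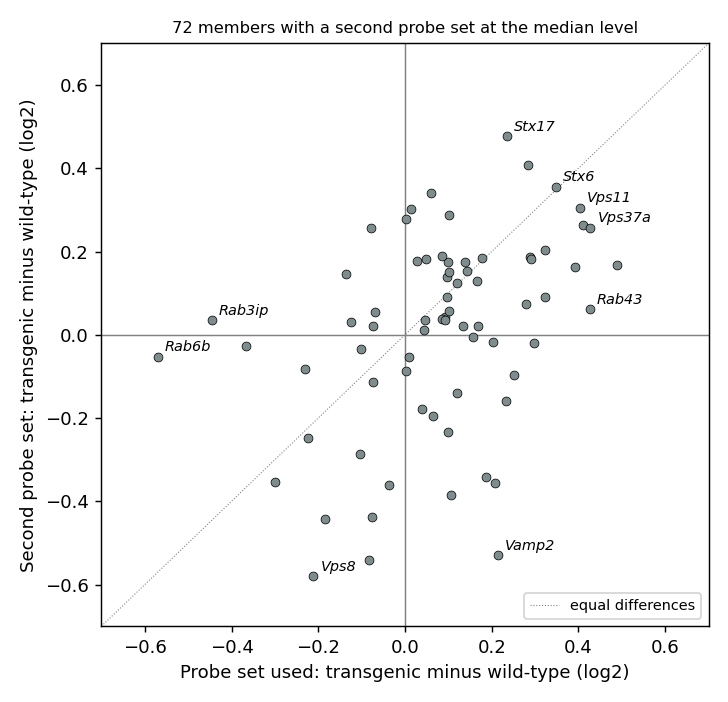
Transgenic minus wild-type difference (log2) of the probe set used (horizontal axis) against that of the second probe set (vertical axis) for the 72 members whose second probe set reached the median level, 1 point a gene. In 51 the 2 differences share a sign and in 21 they do not, Vamp2 among them.

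Around these families, 9 lists of further trafficking genes held 3 calls in 222 measured genes (1.35%, against 4.55% of all genes). Of all genes reaching the median level 6.01% passed. Of 12 other SNAREs, Bnip1, which encodes a SNARE of transport from the Golgi back to the endoplasmic reticulum, passed as lower. It stood at 6.38, 6.23 and 6.21 in transgenic lenses and at 6.79, 6.79 and 6.93 in wild-type lenses, a fall by 0.57 on the log2 scale (SE 0.09; limma adjusted p = 0.0161). The groups did not overlap, and the call was lost without T2 (0.0757), W2 (0.0650) or W3 (0.0694).

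Of 33 regulated exocytosis genes 1 rose and 1 fell. Unc13b, which encodes the vesicle priming factor Munc13-2, stood at 9.98, 9.76 and 9.75 in transgenic lenses and at 9.03, 9.11 and 9.42 in wild-type lenses, a rise of 0.65 ± 0.13 (SE; limma adjusted p = 0.0325). Scamp5, encoding a secretory carrier membrane protein of neurons, stood at 8.19, 8.30 and 8.16 in transgenic lenses and at 8.57, 8.85 and 9.07 in wild-type lenses, a fall by 0.61 on the log2 scale (SE 0.13; adjusted p = 0.0426). There was no overlap between genotypes in either gene. A second probe set of Scamp5 differed by -0.93 and passed among all probe sets (0.00684). With 1 array left out, Unc13b kept its call only without T3 or W3 and Scamp5 only without W1 (adjusted p otherwise up to 0.118 and 0.136), and averaging probe sets ended the call of Unc13b (0.196).

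No gene passed among 16 SNARE regulators, 38 Rab regulators and effectors, 10 exocyst subunits, 23 other ESCRT genes, 18 retromer partners and sorting nexins, 28 tethers and PI3-kinase genes or 44 coat and adaptor genes. Their median differences ran from -0.017 for the retromer list to 0.119 for the ESCRT list. Pik3c3, the lipid kinase Vps34, differed by -0.09 (95% interval -0.35 to 0.16). Read from probe sets not used for the gene, 10 of 288 in the 9 lists passed among all probe sets (3.47%), 3 as higher and 7 as lower, in 7 genes. Rilpl1, which encodes a relative of a Rab7 effector, had 2 as higher, at 0.57 (limma adjusted p = 0.0408) and 0.88 (0.0222), and its brightest probe set differed by 0.57 (0.0537). Ap1s2, an adaptor subunit of clathrin coats, had 2 as lower, at -0.74 (0.00531) and -0.47 (0.0284), while its brightest differed by 0.06. Ist1, of ESCRT-III, had 1 as higher at 0.46 (0.0264), and Ubap1, of ESCRT-I, had 1 as lower at -0.48 (0.0346). Syn2, a synapsin of synaptic vesicles, had 2 as lower, at -0.75 (0.0350) and -0.61 (0.0260), Scamp5 the 1 given above, and Stxbp6, a SNARE-binding protein gene, had 1 dim one as lower at -0.47 (0.0365).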

How the data were processed

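Per the labels' protocols, total RNA of whole lens was extracted with a GenElute kit and labelled with biotin by in vitro transcription. The deposited values, 1 for each array and probe set, are on a log2 scale. That was read from their range, and the summary method is not given in the sources used here. The 64 control probe sets were set aside and the other 45037 quantile normalised, since upper quartiles differed by 0.120. Names came from GEO's platform annotation, updated by gene identifier through RefSeq GRCm38.p6 (99.4% matched). Genotypes were compared with limma 3.58.1 in R 4.3.3 (lmFit, eBayes, two-sided), with Benjamini-Hochberg adjustment over 18193 genes and a threshold of 0.05. Tested on simulated data with these genes, the fit recovered 23.6% of changes of 0.5 and 89.2% of changes of 1 on the log2 scale.

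The members and lists were chosen with earlier results of these data known. The rule for naming took all members past the threshold and the 4 of smallest p in each role. It also took 14 members and 3 list genes for their roles, and up to 4 called genes a list. Some genes that it took, such as Vps13a, Vps13b and Rab5if, are not described above. Genes named outside this rule were chosen after their values were seen. Alternatives were values as deposited, a common median, dim genes left out, probe sets averaged, trended robust variances, a replicate block and each array left out.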

Additional observations from a re-analysis of the deposited data

How the results depend on the processing

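The counts of called members rest on few arrays and move with the settings. As reported, 3 members were higher and 1 lower. On the values as deposited 2 were higher and 1 lower, and after shifting to a common median 1 was higher and 1 lower. With dim genes left out, Rab20 among them, 6 were higher and 1, Rab3ip, was lower. With probe sets averaged 1 was higher and 2 were lower, and with trended robust variances 7 were higher and 3 lower. With 1 array left out, the counts ran from 0 to 2 in each direction, and from 70 to 249 higher and 156 to 385 lower over all genes. Without T2 or W2 no member passed in limma, with 33 and 26 at an unadjusted p under 0.05. The labels do not state that same-numbered arrays are pairs. Deviations from the group mean correlated at -0.05, 0.08 and 0.03 between same-numbered arrays, which cannot settle how the samples were collected. With the replicate block 69 genes were higher and 154 lower, and 0 members passed in either direction (34 at an unadjusted p under 0.05). The causes were not tested.

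No named gene past the threshold changed sign under any alternative. Of genes that did not pass, signs turned on the values as deposited for Rab18 (-0.012) and Vps4b (-0.0639), and after shifting to a common median for Rab18 (-0.0483), Rab7 (-0.036), Vps18 (-0.0304), Vps37c (-0.0225) and Vps4b (-0.1001). With probe sets averaged they turned for Snap29 (-0.0426), Vamp2 (-0.1582), Vps18 (-0.1839), Vps29 (-0.0406), Vps35 (-0.0674) and Tbc1d20 (-0.0082). With 1 array left out, Rab27a ran from -0.0227 to 0.2688, Vamp1 from -0.1483 to 0.0193, Vps18 from -0.0825 to 0.1285, Vps4b from -0.0494 to 0.0719 and Pik3c3 from -0.1761 to 0.0156.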
